A study of Mus musculus with 4 samples.

Results

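The genes of antigen presentation by major histocompatibility complex (MHC) class I and class II were examined by ATAC-seq, an assay in which a transposase cuts accessible DNA. The cells were RAW264.7, a macrophage line from mouse. The set was given by name and held 10 of the 21468 protein-coding genes with a known strand. Of these, 5 act in the class I pathway (H2-K1, H2-D1, B2m, Tap1 and Tap2) and 5 in the class II pathway (H2-Aa, H2-Ab1, H2-Eb1, Cd74 and Ciita). For each gene, all peaks with a summit from 10 kb before the 5′ end to the 3′ end were read, and a promoter peak was one with its summit within 1 kb of an annotated transcription start site (TSS). All cells were wild type and had received 25 ug/mL DIL-oxLDL, oxidized low-density lipoprotein carrying a dye, for 24 h. The control group had DMSO (n = 2) and the esculetin group 40 ug/mL esculetin (n = 2). Paired values below stand in the order of replicates 1 and 2. Nothing in the labels says that the libraries of a group came from separate cultures, so their spread may be technical.

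Class I molecules show peptides from the cytosol to CD8+ T cells and are made by nearly all nucleated cells. Their heavy chains pair with β2-microglobulin and are loaded with peptides that the TAP transporter carries into the endoplasmic reticulum. Class II molecules show peptides from endocytosed material to CD4+ T cells, and are made mainly by dendritic cells, B cells and activated macrophages. Class II transcription depends on CIITA, a coactivator induced by interferon-γ, which is recruited by proteins bound to the X and Y boxes of class II promoters. NF-Y binds the Y box, a CCAAT element. RAW264.7 cells derive from a BALB/c mouse, whereas the reference genome is that of C57BL/6J, and class I genes are polymorphic and have near-identical copies. Reads that mapped to several places had been removed. The part that this, or differences from the reference genome, played was not tested at H2-K1 and H2-D1 or at any class II gene.

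The promoter sequences are shown to set the class I promoters that were open in every library beside class II promoters that mostly had no peak. RefSeq promoters (build GRCm38.p6, where mm10 is the UCSC name of GRCm38) were matched for 6 of the 10 genes and not for Tap2, H2-Ab1, Cd74 and Ciita. The 250 bases before a TSS are printed 5′ to 3′, and H2-K1 is given for the start at 34000333. Capitals mark matches, on either strand, of CCAAT, GGGGATTCC (the NF-κB site of the class I enhancer A), AANNGAAA (bound by interferon regulatory factors), GCAAC (found in X boxes) and TGACG (the core of the cAMP response element). In H2-Aa, 2 TGACG matches on opposite strands overlap.
H2-K1 (chr17:34000334-34000583, minus strand): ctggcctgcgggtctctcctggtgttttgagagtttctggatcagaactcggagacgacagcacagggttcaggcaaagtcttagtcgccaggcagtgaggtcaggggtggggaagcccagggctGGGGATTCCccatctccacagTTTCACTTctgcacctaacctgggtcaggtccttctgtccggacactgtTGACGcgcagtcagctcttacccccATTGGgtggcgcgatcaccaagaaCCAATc
H2-D1 (chr17:35262844-35263093, plus strand): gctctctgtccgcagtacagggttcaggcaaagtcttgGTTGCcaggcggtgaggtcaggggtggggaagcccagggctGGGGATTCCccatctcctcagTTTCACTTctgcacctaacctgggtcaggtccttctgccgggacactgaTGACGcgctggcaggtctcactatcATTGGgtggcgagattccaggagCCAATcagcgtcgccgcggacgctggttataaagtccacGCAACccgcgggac
B2m (chr2:122147437-122147686, plus strand): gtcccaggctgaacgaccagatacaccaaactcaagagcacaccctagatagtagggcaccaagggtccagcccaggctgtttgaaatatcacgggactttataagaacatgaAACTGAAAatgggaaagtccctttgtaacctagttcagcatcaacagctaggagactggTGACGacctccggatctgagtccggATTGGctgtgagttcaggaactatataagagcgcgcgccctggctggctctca
Tap1 (chr17:34187306-34187555, plus strand): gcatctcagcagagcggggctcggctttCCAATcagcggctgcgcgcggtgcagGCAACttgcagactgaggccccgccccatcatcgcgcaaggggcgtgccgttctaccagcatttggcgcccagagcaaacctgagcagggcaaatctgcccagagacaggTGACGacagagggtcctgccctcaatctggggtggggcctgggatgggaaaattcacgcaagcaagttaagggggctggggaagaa
H2-Aa (chr17:34287824-34288073, minus strand): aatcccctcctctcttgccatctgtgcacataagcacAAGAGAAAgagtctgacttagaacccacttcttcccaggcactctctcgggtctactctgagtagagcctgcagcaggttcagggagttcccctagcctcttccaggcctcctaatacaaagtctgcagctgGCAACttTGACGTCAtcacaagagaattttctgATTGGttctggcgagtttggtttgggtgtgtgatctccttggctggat
H2-Eb1 (chr17:34305617-34305866, plus strand): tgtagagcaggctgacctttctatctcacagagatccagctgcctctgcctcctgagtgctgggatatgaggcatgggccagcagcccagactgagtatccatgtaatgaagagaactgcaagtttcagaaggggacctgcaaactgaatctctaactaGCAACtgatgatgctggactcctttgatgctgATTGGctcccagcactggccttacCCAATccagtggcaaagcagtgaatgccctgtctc

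H2-K1 and H2-D1, the class I heavy chain genes, shared a run of matches in these windows. GGGGATTCC lay from base -125 to -117 at H2-K1 and from -171 to -163 at H2-D1, and was followed by an AANNGAAA match, a TGACG match and 2 CCAAT matches. H2-D1 also had GCAAC matches on either side of this run, from -212 to -208 and from -14 to -10. The H2-K1 window had none, but its last CCAAT match lay from -6 to -2, against -53 to -49 at H2-D1. Bases after the run were thus almost absent from the H2-K1 window and could not be compared. GGGGATTCC was found in 0.213% of the 32851 RefSeq promoter windows of this length. The windows of both genes were identical at 87.2% of 203 aligned bases. B2m, which encodes β2-microglobulin, had AANNGAAA, TGACG and CCAAT matches, and Tap1, which encodes a subunit of the peptide transporter, had 1 match each of CCAAT and of GCAAC and TGACG. H2-Aa and H2-Eb1, which encode an α and a β chain of class II, each had GCAAC (from -81 and from -91) followed by a CCAAT match on the opposite strand (from -48 and from -59). CCAAT was found in 33.8% of all windows, GCAAC in 29.9%, AANNGAAA in 21.3% and TGACG in 17.8%. These matches describe the letters only and are not binding sites shown in these cells.

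The peak lists held 19475 and 27731 peaks under DMSO and 8581 and 12680 under esculetin on chromosomes 1 to 19, X and Y. The genome-wide background coverage solved from the lists, a measure of depth, was 6.51 and 4.08 under DMSO and 4.97 and 4.10 under esculetin. The summit coverage of a peak is given below as a multiple of this background (relative coverage). Among peaks whose local background was the genome-wide one, the lowest relative coverage that was called ranged from 2.61 in control replicate 1 to 3.19 in control replicate 2. Of a gene without a peak it can thus be said only that none was detectable at this depth. Control replicate 2 stood apart in its longer list, and what set the length of the lists was not tested. With 2 libraries against 2, the two-sided exact permutation test cannot give a p under 0.33.

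To contrast the classes, promoter peaks were counted first. In each of the 4 libraries, 4 of 5 class I genes had a promoter peak, namely H2-K1, H2-D1, B2m and Tap1. Of the 5 class II genes, 1 (Cd74) had one in each control library, none had one in esculetin replicate 1, and 2 (Cd74 and H2-Aa) had one in esculetin replicate 2. Across all coding genes, a promoter peak was found in 40.7% and 42.1% of genes under DMSO and in 30.1% and 37.9% under esculetin. A promoter peak in all 4 libraries was called in 26.9% of coding genes, against 4 of 5 class I genes and 0 of 5 class II genes. No promoter peak in any library was found in 52.8% of coding genes, as for Tap2, H2-Ab1, H2-Eb1 and Ciita. Control-only promoter peaks (3.75% of coding genes) and esculetin-only promoter peaks (0.419%), each in both libraries of the group, occurred at none of the 10 genes. The mean number of genes with a promoter peak was the same in both groups, 4 ± 0 for class I, and 1 ± 0 in control against 1 ± 1.41 in esculetin libraries for class II (SD, n = 2 each). When the lists were cut to their 8581 strongest peaks, promoter peaks were called at 2 and 2 class I genes under DMSO and at 4 and 4 under esculetin. Under the same limit, 27.7% and 19.4% of all coding genes had one under DMSO and 30.1% and 32.6% under esculetin, so the direction was also that of all promoters.

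**Figure D1:**
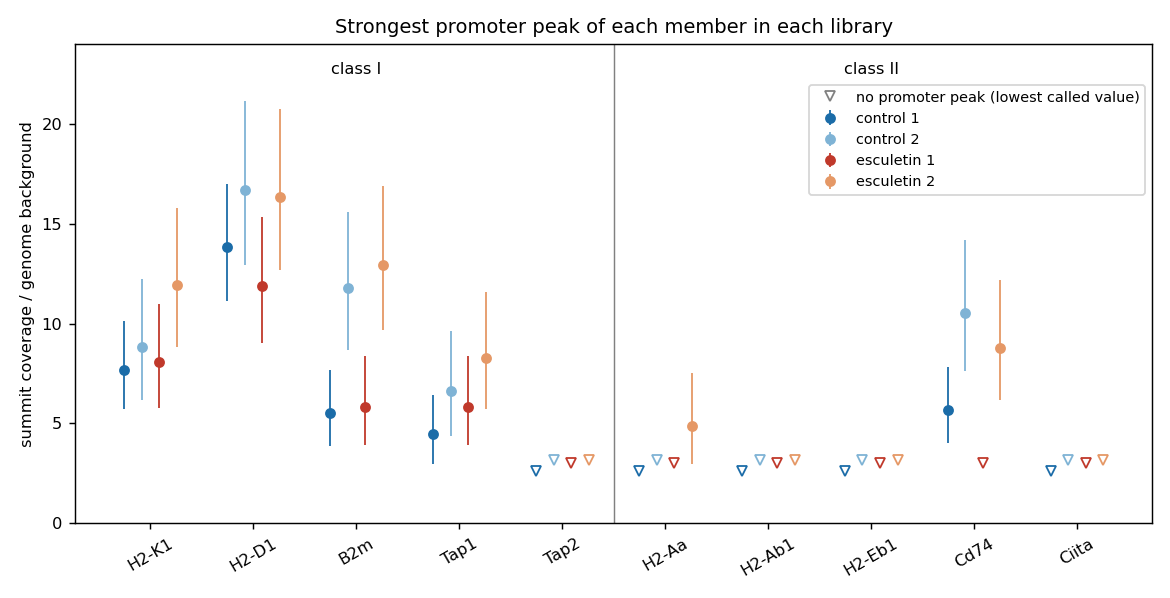
Relative coverage (summit coverage over genome-wide background) of the strongest promoter peak of each gene, by library. Bars are exact Poisson 95% intervals of the coverage, and open triangles mark libraries with no promoter peak, drawn at the lowest relative coverage called in that library. H2-D1 had the highest values on this scale, from 11.9 to 16.7, and 4 of the 10 genes had no promoter peak in any library.

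H2-D1 (chr17:35263094-35267497, plus strand) had the highest promoter coverage of the set over the genome-wide background. By the deposited fold over local background it was the highest in no library, with 3.76 and 4.67 under DMSO and 4.51 and 4.94 under esculetin. Its relative coverage was 13.8 and 16.7 under DMSO and 11.9 and 16.3 under esculetin, from 90, 68, 59 and 67 reads over the summit. The summits lay 55 to 156 bp before the TSS, inside the printed window. Esculetin replicate 1 was the lowest and the groups overlapped, with a log2 difference between esculetin and control means of -0.12 (exact permutation p = 0.67).

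H2-K1 (chr17:33996012-34000619, minus strand) had a peak 198 to 231 bp after its 5′ end in every library, and RefSeq lists further starts of this gene at 34000347 and 34000333. The strongest promoter peak had a relative coverage of 7.68 and 8.82 under DMSO and of 8.05 and 12.0 under esculetin. In control replicate 1 that peak was a second one, 682 bp into the gene, and the peak shared by all libraries had 5.69 there. The groups overlapped (log2 difference 0.25, exact permutation p = 0.67).

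B2m (chr2:122147687-122153082, plus strand) had summits 28 to 122 bp before the TSS. The relative coverage was 5.53 and 11.8 under DMSO and 5.84 and 12.9 under esculetin. The replicates of each group thus lay further apart than the groups, which differed by 0.11 on the log2 scale (exact permutation p = 0.67). SDs on that scale were 0.77 and 0.81.

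Tap1 (chr17:34187556-34197225, plus strand) had summits 101 to 189 bp before its TSS, with relative coverages of 4.46 and 6.62 under DMSO and 5.84 and 8.29 under esculetin. The groups overlapped (log2 difference 0.36, exact permutation p = 0.67). The same peaks lay at the promoter of Psmb9, an immunoproteasome subunit gene on the minus strand whose 5′ end was 226 bp from that of Tap1, so the accessibility of both genes cannot be told apart. Tap2 (chr17:34204479-34216321), the gene of the other transporter subunit, had no promoter peak in any library and 1 peak in all, in control replicate 1, 1635 bp after the 5′ end and with a relative coverage of 4.76.

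The coverage of these 4 promoters was set beside the 5776 coding genes with a promoter peak in every library. Over all of them the median log2 difference was 0.05, and both esculetin libraries lay above both control libraries in 18.2% and below both in 10.8%, against 0 of 4 members in either direction. The library medians were 7.07 and 9.81 under DMSO and 7.25 and 9.76 under esculetin. The second library of each group was therefore the higher one over all promoters, as it was at each of the 4 members. When each library was divided by its own median, H2-K1 was 1.09 and 0.90 under DMSO and 1.11 and 1.23 under esculetin. Tap1 was 0.63 and 0.68 under DMSO and 0.81 and 0.85 under esculetin. H2-D1 was 1.96 and 1.70 under DMSO and 1.64 and 1.68 under esculetin. On this scale the groups did not overlap for 3 of the 4 genes, with H2-K1 and Tap1 higher and H2-D1 lower under esculetin (exact permutation p = 0.33, the smallest possible). The difference at H2-D1 turned to 0.17 and that at Tap1 was 0.013 when the deposited fold over local background was used. At H2-K1, where the strongest peak of control replicate 1 was not the shared one, the shared peak gave 0.47 (before division by the median). Such separation was common on this scale, with 29.4% of the 5776 promoters above and 23.8% below.

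**Figure D2:**
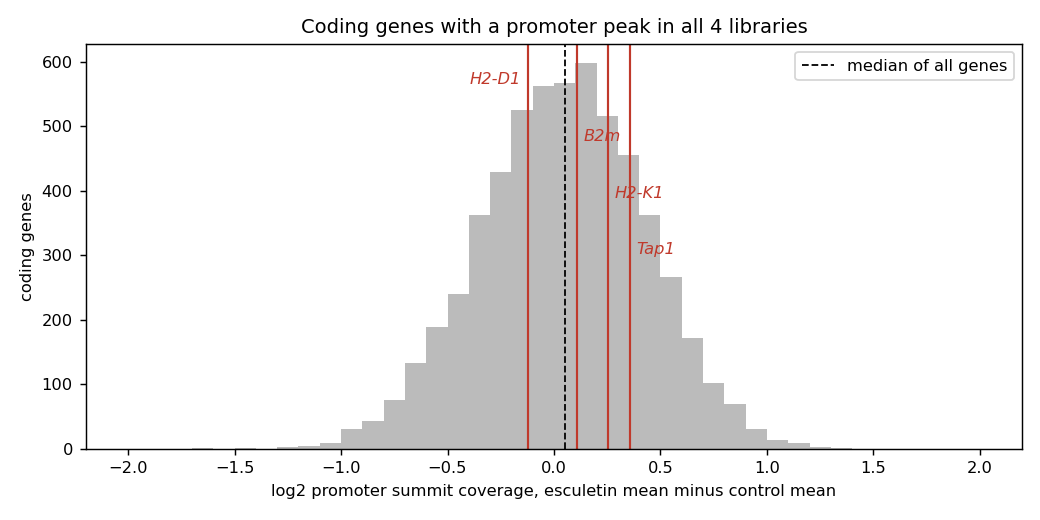
Log2 difference in promoter summit coverage between esculetin and control means for the 5776 coding genes with a promoter peak in all 4 libraries (grey histogram, number of genes per bin, with values beyond the axis in the end bins). Red lines mark the 4 class I genes, from -0.12 (H2-D1) to 0.36 (Tap1), and the dashed line marks the median of 0.05.

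Outside the promoters, class I genes had more peaks under DMSO. Within the 5 class I windows there were 12 and 10 peaks under DMSO and 6 and 4 under esculetin. They averaged 11 ± 1.41 and 5 ± 1.41 (SD, n = 2 each), a ratio of 2.2, against 2.22 for the whole lists. Of these, 6 and 6 peaks lay outside promoters under DMSO and 2 and 0 under esculetin. The ratio of means was 6 for these, and 3.73 for all peaks at no coding promoter. Without esculetin replicate 2 these ratios were 3 and 5.39, and without esculetin replicate 1 the former has no value, since esculetin replicate 2 had no such peak. No excess of class I over all such peaks can thus be read from them. With the 8581 strongest peaks of each list, the class I windows held 6 and 4 peaks in either group. Of these, 4 and 2 lay outside promoters under DMSO and 2 and 0 under esculetin, while 2 and 2 against 4 and 4 lay at promoters. At equal list length the total thus did not differ, and the difference outside promoters was -2 (-5 in the full lists). Peaks at no coding promoter were then also more numerous under DMSO over the whole lists, with 3270 and 4903 against 2722 and 2294 under esculetin.

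Peaks at the 3′ end were called at 3 class I genes, B2m, H2-K1 and H2-D1. B2m had a peak 3258 to 3372 bp after its TSS, with a relative coverage of 9.22 in control replicate 1, 26.0 in control replicate 2 and 7.65 in esculetin replicate 1. A second peak, 5212 to 5252 bp after the TSS and at the 3′ end, had 5.22, 29.4 and 7.65 in the same libraries. Esculetin replicate 2 had neither peak. Apart from the second peak in control replicate 1, these values were above that of the promoter peak in the same library. H2-K1 had a peak 4273 to 4289 bp into the gene in both control libraries (8.76 and 9.07) and in no esculetin library. H2-D1 had one 3975 to 4125 bp into the gene in both control libraries (13.2 and 9.81) and in no esculetin library. The distance used to count such peaks was chosen after the values were seen. A peak within 0.5 kb of the 3′ end was found in 1.55% and 3.28% of the coding genes of at least 2 kb under DMSO and in 0.786% and 0.996% under esculetin. Calls in both DMSO libraries without one under esculetin were made in 0.309% of them, and in 2 of the 10 members, H2-K1 and H2-D1. Among the 8581 strongest peaks of each list, the 3′ peaks of H2-K1 and H2-D1 remained in control replicate 1 alone, so the pattern held for 0 of the 10 members and for 0.0419% of the coding genes. Further peaks at H2-D1 were called in 1 library each, 911 bp (still within the promoter distance) and 2874 bp into the gene in control replicate 1 and 3837 and 4706 bp before it in control replicate 2.

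**Figure D3:**
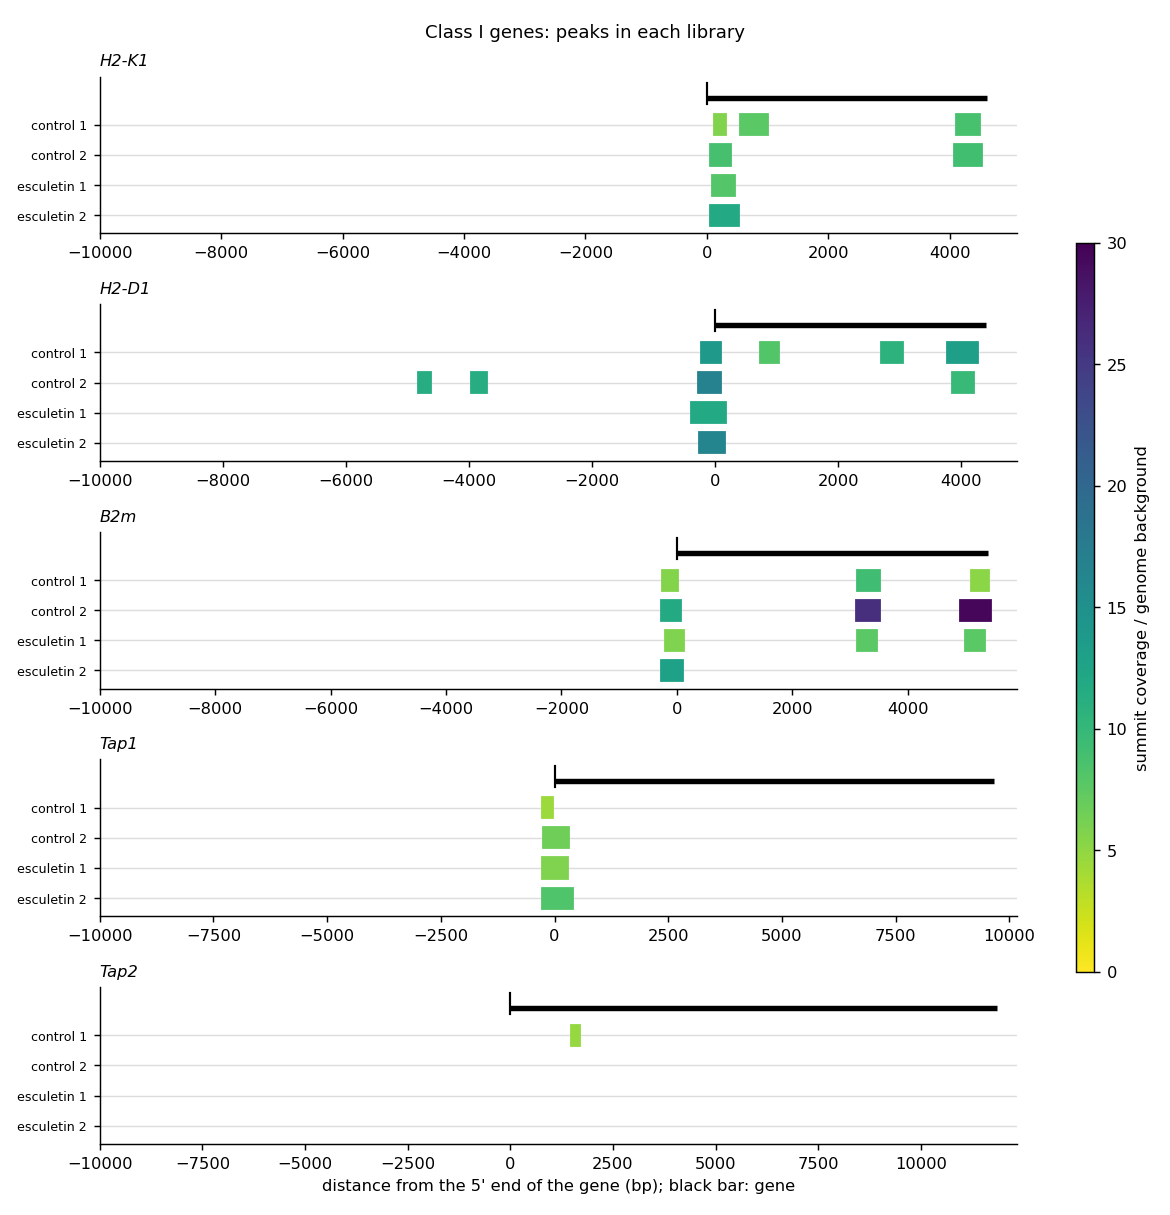
Peaks at the class I genes in each library, by distance in bp from the 5′ end, oriented along the gene. Each box is a peak coloured by its relative coverage (0 to 30), and the black bar is the gene. H2-K1, H2-D1, B2m and Tap1 share a promoter peak in all 4 libraries, whereas the peaks at the 3′ ends of H2-K1 and H2-D1 appear under DMSO in these full lists.

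At class II genes, no peak region was shared by all libraries. The 5 windows held 3 and 2 peaks under DMSO and 2 and 4 under esculetin. They averaged 2.5 ± 0.71 and 3 ± 1.41 (SD, n = 2 each), a difference smaller than the SD of the esculetin group. In class I, 4 regions were. By gene, 4 of 5 class II windows held a peak in at least 1 library and 1 of 5 in all 4, near the 64% and 33.5% of all coding genes.

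Cd74 (chr18:60803849-60812652, plus strand), which encodes the invariant chain that guides class II molecules to endosomes, was the class II gene with the most called libraries. Its promoter peak, with summits 80 to 171 bp before the TSS, had a relative coverage of 5.69 and 10.5 under DMSO and 8.78 in esculetin replicate 2, and was not called in esculetin replicate 1. A second peak, 2008 to 2062 bp into the gene, had 6.30 and 7.35 under DMSO and 5.03 in esculetin replicate 1, and was not called in esculetin replicate 2. Each esculetin library thus had 1 of the 2 peaks and each control library both. This pattern depended on the length of the lists. Among the 8581 strongest peaks, Cd74 had no peak in control replicate 1 and 1 peak in each other library, and with −log10 q of at least 5 the call in esculetin replicate 1 was lost.

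H2-Aa (chr17:34282744-34287823, minus strand) had peaks in esculetin libraries and in no control library. A region at chr17:34293577-34293891, 5914 to 5952 bp before the 5′ end, had a relative coverage of 4.23 and 7.32 under esculetin. It was the only one of the 20 regions in the windows of the 10 genes with a call in both esculetin libraries and in neither DMSO library. Of these regions, 6 at class I and 2 at class II genes were promoter regions. The pattern was seen in 0.732% of the 25536 regions outside coding promoters in the merged lists, a set that holds no promoter regions. Its coverage in esculetin replicate 1 had an exact Poisson interval of 2.62 to 6.46, which reaches below the lowest value called. That call, and the promoter call described next, had −log10 q of 4.64 and 4.58. Both were lost when −log10 q of at least 5 was asked for, which left no region of the 10 genes called in both esculetin libraries only. The promoter peak of H2-Aa was called in esculetin replicate 2 alone, with a summit 80 bp before the TSS, over the printed GCAAC to CCAAT stretch, and a relative coverage of 4.88. Another region of that library, at chr17:34295968-34296320, lay 8386 bp before H2-Aa and 9658 bp before H2-Eb1, with a relative coverage of 6.34.

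H2-Ab1 (chr17:34263227-34269418) had no peak in its window in any library. H2-Eb1 (chr17:34305867-34316674) had no peak other than the shared distal one. Ciita (chr16:10480014-10531064, plus strand) had 1 peak in all, in control replicate 1, 16055 bp after the 5′ end with a relative coverage of 3.07 from 20 reads. Ciita is known to use several promoters, and the 5′ end alone was used as its TSS here.

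**Figure D4:**
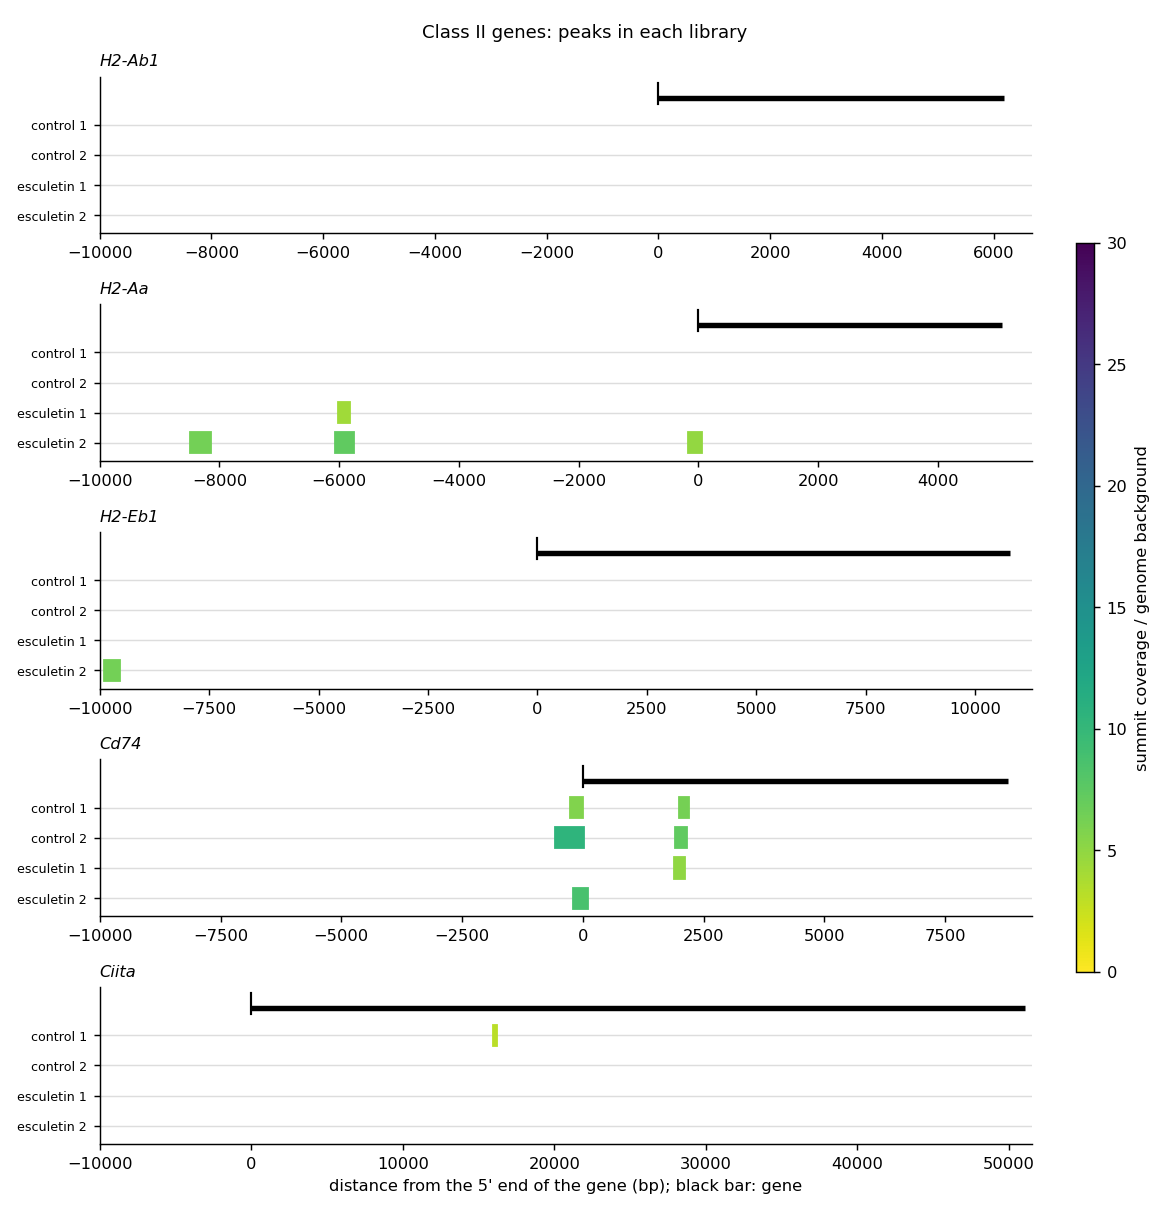
Peaks at the class II genes in each library, by distance in bp from the 5′ end, oriented along the gene. Each box is a peak coloured by its relative coverage (0 to 30), and the black bar is the gene. H2-Ab1 had no peak, H2-Aa had peaks under esculetin, and the distal H2-Eb1 peak is the same peak as the one 8386 bp before H2-Aa.

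Other genes of the pathways were counted from lists. Of 20 further class I genes, 5 had a promoter peak in all 4 libraries (Pdia3, Canx, Calr, Psme2 and Psmb9), 5 in none, 1 in both control libraries only, and 0 in both esculetin libraries only. Over all coding genes, 26.9% had one in all 4, 52.8% in none and 3.75% in both control libraries only, so the share in all 4 was near the background for this list and for the class II list that follows. The control-only gene was H2-T23, which encodes a nonclassical class I chain, with relative coverages of 5.38 and 6.62. Nlrc5, the class I counterpart of Ciita, had a promoter peak in control replicate 1 alone (5.07). Of 14 further class II genes, 3 had a promoter peak in all 4 libraries (Lgmn, Ctsl and H2-DMa), 7 in none, and 1, the costimulatory gene Cd80, in both control libraries only (5.38 and 6.86). Neither H2-T23 nor Cd80 had a promoter peak in any library among the 8581 strongest peaks, where 0.55% of all coding genes were control-only. H2-DMa, which encodes a chain of the peptide editor of class II, had 5.99 and 13.5 under DMSO and 12.9 and 12.2 under esculetin, and its peak in esculetin replicate 1 lay at another annotated start.

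Promoter peaks were found at most regulators of both pathways. Of 18 regulators, 15 had a promoter peak in all 4 libraries and 0 in none, against 26.9% and 52.8% of all coding genes. Among those 15, both esculetin libraries lay above both control libraries in 3 and below in 0, a share of the 15 close to that of all promoters, and the median log2 difference was 0.19. Over the library medians the counts were 6 above and 3 below, against 29.4% and 23.8% of all promoters. The 3 genes above on the unscaled values were singled out after those values were seen. Nfya, a subunit of NF-Y, had 11.1 and 12.0 under DMSO and 16.1 and 19.8 under esculetin. Nfyb, another subunit, had 8.14 and 8.33 under DMSO and 9.06 and 14.1 under esculetin. Rfxank, a subunit of the RFX complex, had 6.61 and 8.33 under DMSO and 12.1 and 10.2 under esculetin. Other subunits of the same complexes overlapped between groups on the unscaled values, where Nfyc had a log2 difference of -0.079 and Rfx5 of -0.27. Over the library medians Nfyc was lower under esculetin (1.0 and 1.08, against 1.09 and 1.13 under DMSO), and Rfxap was not called in control replicate 2.

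The labelled cell type was checked with marker genes. Of 8 macrophage genes, 1 (Spi1) had a promoter peak in all 4 libraries, 4 (Itgam, Adgre1, Csf1r and Mertk) had none in any, and 1 (Fcgr1, an Fc receptor gene) had one in both control libraries only, with relative coverages of 4.76 and 6.62. Cd68 had a promoter peak in every library except esculetin replicate 1 (7.68 and 10.5 under DMSO, 9.27 in esculetin replicate 2), and Lyz2 in control replicate 2 alone. The shares over all coding genes were 26.9% in all 4 and 52.8% in none, and by these counts the macrophage promoters were near or below the background. By library, 3 and 4 of the 8 were called under DMSO and 1 and 2 under esculetin. The shares of all coding genes were 40.7% and 42.1% under DMSO and 30.1% and 37.9% under esculetin. Fcgr1, too, had no promoter peak among the 8581 strongest peaks of any list. Promoter peaks were absent in every library at all 5 B cell, 4 dendritic cell, 5 T cell and 5 kidney epithelium genes. Counted by any peak in the window in at least 1 library, the numbers were 6 of 8 macrophage, 3 of 5 B cell, 4 of 4 dendritic cell, 3 of 5 T cell and 2 of 5 kidney epithelium genes, against 64% of all coding genes. A peak in the window in all 4 libraries was found at 2 macrophage genes (Cd68 and Spi1), 1 dendritic cell gene (Zbtb46), 1 T cell gene (Cd3g) and at 0 of the B cell and kidney epithelium genes, against 33.5% of all coding genes.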

How the data were processed

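ATAC-seq of 4 RAW264.7 libraries was analysed from the deposited peak lists, 1 per library. The study's methods name Trim-Galore for trimming of the paired reads, Bowtie2 for alignment to mm10, Sambamba for taking out duplicate and multimapping reads, and MACS2 for the calls that the authors deposited. Caller options, including any shift for the transposase, are not given in the sources used here. The authors' lists hold, per peak, the fold over local background (a linear ratio), −log10 p and −log10 q, and a score derived from the latter. They hold no read counts.

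Summit coverage and background were solved from the deposited fold, (coverage + 1)/(background + 1), and the −log10 p of a Poisson count. All peaks with −log10 p under 60 had a single solution, and 100% of 2000 peaks simulated from the same formula were recovered. The B2m 3′ peak of control replicate 2 (−log10 q of 72.0) was outside both checks. Local backgrounds at H2-D1 in control replicate 1 were above those simulated. Coverage counts reads at 1 base, and its intervals cover counting error only. Genes came from a RefSeq table of GRCm38.p6, with strands from RefSeq promoters or, where these had none, from GENCODE vM39 by symbol and chromosome. The strand sources were equal for 99.4% of 22231 genes with both, and 98.1% of coding genes had a strand. No exon annotation was used.

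Groups followed the treatment labels. The numbers in the esculetin peak names differed from those in the sample titles, so numbers were not taken to pair libraries. All 10 members are named, and of the other antigen presentation genes those with promoter calls in both libraries of one group and in neither of the other. Regulators, markers and genes named from other patterns were picked after their values were seen. Members and lists were chosen with earlier results of these data known. Alternatives were other windows, stricter lists, equal numbers of top peaks, other scalings and leaving out each library. Tools were SciPy 1.17.1 and NumPy 2.4.6 for statistics, pandas 2.3.3 for tables, Biopython 1.88 for alignment and matplotlib 3.10.9, under Python 3.11.15.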

Additional observations from a re-analysis of the deposited data

How the results depend on the processing

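The two-sided exact permutation test of 2 libraries against 2 cannot give a p under 0.33, so sizes and directions are described. Of the alternatives for the counts, 34 moved them by less than the replicate SD, 4 by exactly that SD and 6 by more. The difference between groups in class I promoters (0) was -0.5 with a 2 kb promoter window and 2 with equal numbers of top peaks. The difference in class I peaks (-6) was -8 with 50 kb before the 5′ end and 0 with equal numbers of top peaks, which shortens the control lists more. For class I peaks outside promoters (-5), a count whose alternatives were chosen after seeing the data, the value was -2 at equal list length and -6 to -4 without 1 library. The difference in class II peaks (0.5) was -1 with 2 kb before the 5′ end, which leaves out the distal H2-Aa regions, -0.5 with −log10 q of at least 5, and 1.5 at equal list length. It ranged from -0.5 without esculetin replicate 2, through 0 without control replicate 2, to 1.5 without esculetin replicate 1, so its direction rests on single libraries. Leaving out 1 library gave -1 to 1 for class II promoters, without esculetin replicates 2 and 1 respectively.

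Promoter coverage kept its direction at Tap1, from 0.013 to 0.64. At H2-K1 the difference was -0.032 without esculetin replicate 2 and at most 0.54. At H2-D1 it was 0.17 with the deposited fold, 0.011 without control replicate 2, 0.11 without esculetin replicate 1 and -0.35 without esculetin replicate 2. At B2m it ranged from -0.47 without esculetin replicate 2 and -0.44 without control replicate 1 to 0.68. The causes were not tested. With a replicate block, the differences were the same by construction (0.36 at Tap1), and the smallest possible p was 0.5. Deviations of same-numbered libraries were uncorrelated (r = 0.0013 across 5776 genes, which are not independent replicates). Taking the promoter peak nearest to a TSS, an alternative chosen after seeing the data, gave 0.47 at H2-K1.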

Other observations

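The local background around the H2-D1 promoter was high in every library. It was 3.56 and 3.38 times the genome-wide background in control replicates 1 and 2 and 2.48 and 3.11 times in esculetin replicates 1 and 2, above that of at least 99.1% of the promoters called in all 4 libraries. The medians over those promoters ranged from 1.23 to 1.37. At Tap1 the local background was 1.0 and 1.04 in the control and 1.13 and 1.54 in the esculetin libraries.

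The width of the Tap1 promoter peak was 247 bp in control replicate 1, 556 bp in control replicate 2, 564 bp in esculetin replicate 1 and 673 bp in esculetin replicate 2. The 3 wider peaks extended over the TSS, whereas that of control replicate 1 ended before it.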
